A study of Mus musculus with 70 samples.

Results

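Heat shock genes and cold-inducible genes are the classical temperature-responsive transcripts of mammalian cells, and 10 of them were followed here in the mouse dorsal hippocampus, the brain region needed to remember where objects are. The members were chosen by gene symbol from the 24346 genes listed in the deposited expression table, and all 10 were found. They are 8 cytosolic heat shock genes (Hspa1a, Hspa1b, Hspa8, Hsph1, Dnajb1, Hsp90aa1, Hspb1 and Cryab) and 2 cold-inducible RNA-binding protein genes (Cirbp and Rbm3). All 10 had a mean above 1 FPKM (fragments scaled by transcript length and by mapped reads) over the libraries and so were among the 12994 genes tested.

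The 70 RNA-seq libraries came from individually housed adult male C57BL/6J mice in 7 groups of 10, each split evenly between harvest cohort 1 and harvest cohort 2, which were collected a day apart. Groups are named by days of initial voluntary wheel running, then days of sedentary delay, then days of reactivating exercise. Those that ran once and were trained after no delay, a 7-day delay or a 14-day delay are 14-0-0, 14-7-0 and 14-14-0. The group that ran again for 2 days after a 7-day delay is 14-7-2, and that with the 2 days alone is 0-0-2. A sedentary group (0-0-0) never ran, and a home cage group neither ran nor was trained. Every mouse outside the home cage group received a brief, subthreshold object location memory (OLM) training session shortly before the tissue was taken, so home cage and sedentary mice differ in training and not in exercise. Wheels were withdrawn on the night before training.

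Heat shock proteins are chaperones: they hold unfolded proteins, refold them or pass them on for degradation. The cytosolic Hsp70 proteins do this together with J-domain partners such as Dnajb1 and exchange factors such as Hsph1, Hsp90 finishes the folding of signalling proteins, and the small heat shock proteins Hspb1 and Cryab keep aggregating proteins soluble. Transcription of the inducible members is driven by heat shock factor 1, which binds repeated GAA units (the heat shock element) when unfolded proteins accumulate. Cirbp and Rbm3 respond in the opposite direction: both are RNA-binding proteins whose transcripts accumulate at mildly lowered temperature, and Rbm3 is known in the hippocampus for its link to synapse maintenance after cooling.

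The promoters of 6 members were held in the RefSeq promoter table for GRCm38.p6 (Hspa1a, Hspa1b, Hsph1, Dnajb1, Hspb1 and Cirbp); Hspa8, Hsp90aa1, Cryab and Rbm3 had no entry. The 250 bases before the transcription start were searched on both strands for a 2-unit heat shock element, spelled GAANNTTC or TTCNNGAA, and for the mild-cold responsive element TCCCCGCC. A heat shock element lay in 12.8% of the 32851 promoters of the table, and a mild-cold responsive element in 4.64%. The 3 windows below are shown because they belong to the inducible Hsp70 pair, to the small heat shock gene with the most matches and to the cold-inducible gene with an entry. They read 5′ to 3′ in the direction of transcription, and capitals mark the matches.
Hspa1a promoter, chr17:34972157-34972406, minus strand: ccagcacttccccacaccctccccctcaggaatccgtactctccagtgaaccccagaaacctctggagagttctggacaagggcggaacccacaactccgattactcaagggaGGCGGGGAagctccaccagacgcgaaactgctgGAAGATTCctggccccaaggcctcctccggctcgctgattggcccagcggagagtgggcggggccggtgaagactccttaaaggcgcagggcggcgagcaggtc
Hspb1 promoter, chr5:135887669-135887918, plus strand: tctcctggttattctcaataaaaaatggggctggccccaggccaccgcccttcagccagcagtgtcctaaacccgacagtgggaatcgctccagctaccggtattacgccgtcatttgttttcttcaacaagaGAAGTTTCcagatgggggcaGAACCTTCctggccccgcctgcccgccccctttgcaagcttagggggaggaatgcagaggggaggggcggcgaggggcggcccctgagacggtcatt
Cirbp promoter, chr10:80167589-80167777, plus strand: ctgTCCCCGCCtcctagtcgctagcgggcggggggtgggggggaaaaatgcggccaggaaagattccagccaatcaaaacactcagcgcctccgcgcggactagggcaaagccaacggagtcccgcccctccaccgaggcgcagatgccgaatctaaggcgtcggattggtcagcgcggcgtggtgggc

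In the Hspa1a window the heat shock element GAAGATTC lies 104 to 97 bases before the start, and a mild-cold responsive element on the other strand, GGCGGGGA, lies 137 to 130 bases before it. The Hspa1b window (chr17:34959239-34959488, minus strand) matches that of Hspa1a at 247 of 250 bases. The substitutions are C44T, T47C and T249G (Hspa1a base, position counted from 1 at the 5′ end of the window, Hspa1b base), and none of them falls in a match. Hspb1 holds 2 heat shock elements, GAAGTTTC at 117 to 110 and GAACCTTC at 97 to 90 bases before the start, and Hsph1 holds 1, TTCTCGAA at 33 to 26. The Hsph1 match lies within the annotated gene, whose longest annotated extent begins before this start. Cirbp has a mild-cold responsive element 247 to 240 bases before its start. The whole Cirbp window also lies within the annotated gene, whose longest annotated extent begins at base 80165985, before this start. The last 61 bases of the Cirbp window were left out because they lie in an annotated exon. Dnajb1 had neither motif in this window. No 2 matches in a window overlapped, and a match describes letters, not binding.

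Annotation on GRCm38 placed Hspa1a at chr17:34969190-34972156 and Hspa1b at chr17:34956436-34959238, both on the minus strand and both with a single exon. Rbm3 lies at chrX:8138975-8145880 on the minus strand and Cirbp at chr10:80165985-80172786 on the plus strand, each with 7 exons. Dnajb1 (chr8:83608193-83612653, plus), Hspb1 (chr5:135887919-135889563, plus) and Cryab (chr9:50751325-50756636, plus) are short genes of 3, 3 and 4 exons. Hspa8 (chr9:40800984-40810087, plus) has 9 exons and holds small nucleolar RNA genes in its introns, Hsp90aa1 (chr12:110690605-110702728, minus) has 11, and Hsph1 (chr5:149614287-149636376, minus) has 18. Antisense genes overlap Hspa1a (Gm20481), Cryab (Hspb2) and Rbm3 (Rbm3os), and since the sources do not state whether reads were counted by strand, reads from such partners cannot be told apart.

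The study describes keeping only reads with a single best genomic position, which would bear unequally on the members. It also describes FPKM values from a standard Tuxedo protocol, so whether that rule held for them is not settled. Of the 50-base stretches of the Hspa1a transcript, 60.3% also occur exactly in a transcript of another gene, almost all of them in Hspa1b, and for Hspb1 the share was 58.9%, in its pseudogene Hsp25-ps1. Hspa8 shared 73.2% with other annotated transcripts, mainly the processed copy Gm15459, and Hsp90aa1 shared 58.5%. Rbm3 shared 13.6% with Rbm3-ps and other transcripts, Dnajb1 0.407%, and Hsph1, Cryab and Cirbp shared none. For Hspa1b the share was 62.3%. The levels of Hspa1a, Hspa1b, Hspa8, Hsp90aa1 and Hspb1 are therefore uncertain as absolute values. If reads with several positions entered the FPKM values, Hspa1a and Hspa1b are also uncertain as separate genes.

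2 libraries stood apart from the rest. Sedentary replicate 6 had a summed level of hippocampal pyramidal and granule neuron markers of 97.7 FPKM against a sedentary median of 591 FPKM, with the highest oligodendrocyte marker sum of all libraries. In it the forebrain neuron gene Neurod6 stood at 2.45 FPKM and the granule cell gene Prox1 at 2.91 FPKM, against medians of 165 and 23.5 FPKM in the other sedentary libraries. The neuron marker Wfs1 was little changed (54.9 against 58.7 FPKM). The thalamus markers Calb2 (121 against 6.82 FPKM), Prkcd (90.9 against 16), Slc17a6 (10.6 against 3.20) and Tcf7l2 (2.04 against 1.15) were higher. The other thalamus markers, Lef1 (1.22 against 1.57 FPKM) and Rora (2.88 against 3.99), were lower. Most of the markers of this control library thus go against its label, but not all. In 14-7-0 replicate 4, 10279 genes were listed at 0 against 6243 to 7199 in the other 69 libraries, and its relative depth was 0.0361 against 0.346 to 1.48. Members called against sedentary are given with and without the first of these libraries, and those of 14-7-0 also without the second. The tissue is bulk, so fewer cells of a type and less RNA per cell cannot be told apart.

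The members spanned a 600-fold range of levels per length, with Hspa8 at a mean of 1046 FPKM over the 70 libraries and Hspa1a at 1.74 FPKM. Hsp90aa1, the stress-inducible Hsp90 alpha, followed at 455 FPKM, then Cryab (alphaB-crystallin) at 113 FPKM and Hsph1 (Hsp110) at 108 FPKM. The cold-inducible genes lay in the middle, Rbm3 at 89.7 FPKM and Cirbp at 42.3 FPKM. Dnajb1 was listed at 17.2 FPKM, Hspb1 (Hsp25 in mouse) at 6.60 FPKM and Hspa1b at 2.04 FPKM. Within groups and cohorts the spread of log2 values was widest for the inducible and small heat shock genes: Hspa1b exceeded 95.4% of all tested genes in residual SD, Hspb1 93.4%, Hspa1a 92.2% and Cryab 85.2%. Hspa8 and Hsph1 were among the steadiest, above 13.4% and 12.2% of all tested genes.

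To determine whether exercise history was accompanied by a change in the cold-inducible genes, each group was compared with sedentary mice. Cirbp and Rbm3 were higher in 4 of the 5 exercise groups, all except 14-14-0, and neither differed detectably between home cage and sedentary mice. The size was 0.27 to 0.32 on the log2 scale for Cirbp and 0.29 to 0.52 for Rbm3, and Rbm3 was highest in 14-7-2.

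Rbm3 was measured at 50.5 (lowest), 73.7 (median) and 110 (highest) FPKM in sedentary libraries, a mean of 77.4 ± 20.8 (SD, n = 10). In home cage libraries the lowest, median and highest values were 53.1, 77.3 and 98.9 FPKM. In 14-7-2 they were 82.8, 116 and 124 FPKM, a mean of 108 ± 13.5 (SD, n = 10). The groups overlapped, but 6 of the 10 libraries of 14-7-2 lay above the highest sedentary library and all 10 lay above the sedentary median. The 14-0-0 libraries ran from 81.2 through a median of 92.2 to 124 FPKM for Rbm3. Those of 14-7-0 ran from 73.0 through 92.5 to 116 FPKM. In 0-0-2 they ran from 74.9 through 93.7 to 102 FPKM. Of these 3 groups, 10, 9 and 10 of 10 libraries exceeded the sedentary median. After 14 days of delay (14-14-0) Rbm3 ran from 65.2 through 84.4 to 102 FPKM, with 8 of 10 libraries above that median.

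On the log2(FPKM + 0.1) scale, on which changes of low genes are understated, Rbm3 was higher than in sedentary mice by 0.52 (SE 0.13, limma p = 0.000772) in 14-7-2, by 0.35 (SE 0.13, p = 0.0162) in 14-0-0, by 0.32 (SE 0.14, p = 0.0263) in 14-7-0 and by 0.29 (SE 0.13, p = 0.0311) in 0-0-2. Its value in 14-14-0 was 0.14 (SE 0.13, p = 0.298). With 100000 resamples, the permutation p for 14-7-2 was 0.00142, or 0.00852 adjusted over the 6 comparisons of the gene, while those of the other 3 groups adjusted to 0.0607. Without sedentary replicate 6, in which Rbm3 stood at 52.8 FPKM, the Rbm3 difference was 0.47 (p = 0.00155) in 14-7-2 and 0.29 (p = 0.0331) in 14-0-0, but 0.27 (p = 0.0534) in 14-7-0 and 0.24 (p = 0.0629) in 0-0-2, no longer past the threshold. Without 14-7-0 replicate 4 the Rbm3 difference in 14-7-0 was 0.30 (p = 0.0442), and without both libraries 0.25 (p = 0.0834).

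Cirbp moved in a narrower band. Sedentary libraries ran from 28.1 through a median of 36.6 to 47.7 FPKM, a mean of 37.1 ± 6.52 (SD, n = 10), and home cage libraries from 23.7 through 36.2 to 46.2 FPKM. The 0-0-2 libraries ran from 41.3 through 45.5 to 53.6 FPKM, a mean of 45.8 ± 4.06 (SD, n = 10), and every one of them exceeded the sedentary median. In 14-7-0 the Cirbp values were 36.9, 46.8 and 54.7 FPKM (lowest, median, highest). In 14-7-2 they were 37.8, 42.6 and 64.0 FPKM. In 14-0-0 they were 34.4, 45.8 and 53.8 FPKM. All 10 libraries of 14-7-0 and of 14-7-2, and 9 of 10 of 14-0-0, lay above the sedentary median of Cirbp, with overlap between the groups. The 14-14-0 libraries were the most scattered, from 29.6 through 41.0 to 59.6 FPKM, and 6 of 10 exceeded that median.

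The differences of Cirbp from sedentary were 0.32 (SE 0.09, limma p = 0.00178) in 0-0-2, 0.31 (SE 0.10, p = 0.00712) in 14-7-2, 0.30 (SE 0.09, p = 0.00474) in 14-7-0 and 0.27 (SE 0.10, p = 0.0148) in 14-0-0, on the log2 scale. In 14-14-0 the value was 0.16 (SE 0.13, p = 0.213). Permutation p values for the first 4, adjusted over the 6 comparisons of the gene, were 0.0119, 0.0182, 0.0182 and 0.0286. Without sedentary replicate 6 these differences of Cirbp were 0.36, 0.35, 0.34 and 0.31, each still past the threshold. In 14-7-0 the value was 0.29 (p = 0.00907) without 14-7-0 replicate 4 and 0.33 (p = 0.00227) without both libraries. No gene passed Benjamini-Hochberg adjustment over all 12994 genes in any comparison with sedentary mice, and the limma adjusted p of Cirbp and Rbm3 ranged from 0.393 in 14-0-0 to 1 in 0-0-2.

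**Figure D1:**
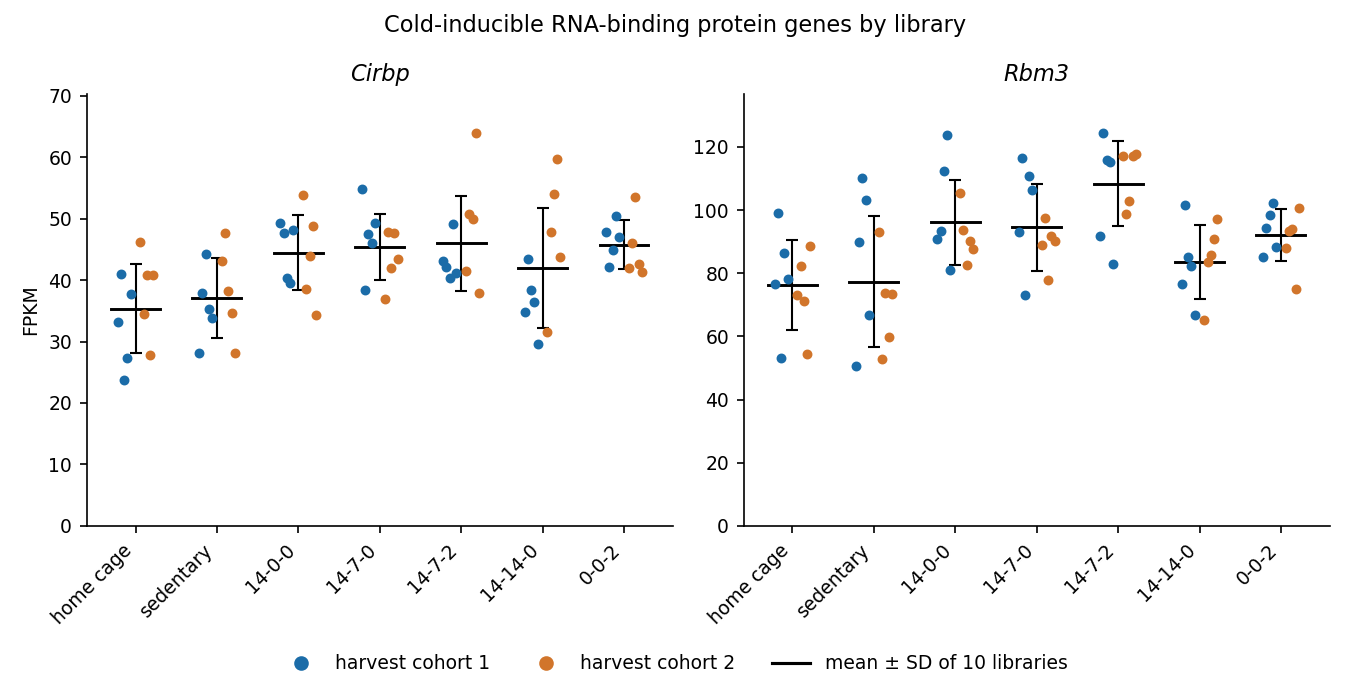
Rbm3 and Cirbp in every library (FPKM, vertical axis, from 0) by group (horizontal axis), with points for single libraries coloured by harvest cohort and the group mean ± SD of 10 libraries. Rbm3 group means run from 76.3 FPKM in home cage to 108 FPKM in 14-7-2, and Cirbp group means from 35.3 FPKM in home cage to 46.0 FPKM in 14-7-2.

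All comparisons with sedentary mice use the same 10 sedentary libraries, so the 4 higher groups are not independent of one another. 2 further contrasts, chosen after the data had been seen, rested on home cage libraries alone or together with the sedentary ones. Against the 10 home cage libraries, which share no mouse with the sedentary group but were also untrained, Rbm3 was higher by 0.52 in 14-7-2 (limma p = 6.98e-05, adjusted p = 0.0367) and Cirbp by 0.39 (p = 0.00292, adjusted p = 0.184). In 0-0-2, 14-7-0 and 14-0-0 the Cirbp differences from home cage were 0.40, 0.38 and 0.35 and the Rbm3 differences 0.29, 0.32 and 0.35, with unadjusted p between 0.000853 and 0.00742. In 14-14-0 neither gene was past the threshold against home cage. With the mean of the 5 exercise groups set against the mean of home cage and sedentary, which takes in the same sedentary libraries, in 1 model of all 70 libraries, Rbm3 was higher by 0.32 (SE 0.06, limma adjusted p = 0.00834) and Cirbp by 0.31 (SE 0.06, adjusted p = 0.01), among 37 genes (0.285%) past adjustment. Without sedentary replicate 6 the adjusted p was 0.0175 for Rbm3 and 0.00543 for Cirbp.

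The 2 cold-inducible genes were also compared among groups that all ran. To ask what the 2 days of reactivating exercise added after a 7-day delay, 14-7-2 was set against 14-7-0. Rbm3 was the 1 member past the threshold, higher by 0.20 (SE 0.09, limma p = 0.0332, adjusted p = 0.888), where 5.39% of all genes were past it. Cirbp differed by 0.01 (SE 0.09, p = 0.896). Mice with a wheel until the night before training (14-0-0, 14-7-2 and 0-0-2) were then set against mice whose wheels had been removed 7 or 14 days earlier (14-7-0 and 14-14-0), which uses no sedentary library. Here 3 of 10 members passed the unadjusted threshold, against 8.9% of all genes: Rbm3 was higher after recent running by 0.15 (SE 0.05, p = 0.00654, adjusted p = 0.265), and Cryab and Hspb1 were lower. Cirbp differed by 0.07 (SE 0.06, p = 0.289).

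In an F test over the 7 groups, Rbm3 gave the smallest p of the members (limma p = 2.28e-05) and was the 1 member past adjustment (adjusted p = 0.0148), among 29 genes (0.223% of those tested). Cirbp followed (p = 0.000516, adjusted p = 0.120), then Cryab (p = 0.00681), Hspb1 (p = 0.00907) and Hspa8 (p = 0.0282), so 5 of 10 members passed the unadjusted threshold where 7.63% of all genes did. In the order of Rbm3 group means, 14-7-2 came first, followed by 14-0-0, 14-7-0, 0-0-2, 14-14-0, sedentary and home cage. For Cirbp the order was 14-7-2, 0-0-2, 14-7-0, 14-0-0, 14-14-0, sedentary and home cage. Over all members, 0 of 60 pairs of neighbouring groups in such an order differed at a permutation p under 0.05, so the orders themselves are not resolved beyond the spread between libraries.

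To determine whether heat shock genes moved as the cold-inducible genes did, the same comparisons were read for the 8 chaperones. None of them was past the unadjusted threshold as higher than in sedentary mice in any exercise group, and those past it were all lower: Dnajb1 in 14-0-0, 14-7-2 and 14-14-0, Cryab in 14-7-2 and 0-0-2, and Hspa8 and Hspb1 in 14-7-2. No heat shock gene passed adjustment in these comparisons. Counted with the cold-inducible pair, the members past the threshold were 2 higher and 1 lower in 14-0-0, where 6.11% of all genes were called higher and 3.04% lower. They were 2 higher and 0 lower in 14-7-0 (background 1.6% and 1.66%) and 2 higher and 4 lower in 14-7-2 (background 2.07% and 2.32%). They were 0 higher and 1 lower in 14-14-0 (background 3.19% and 1.75%) and 2 higher and 1 lower in 0-0-2 (background 1.14% and 1.23%). Between home cage and sedentary mice 0 members were called by limma at an unadjusted p under 0.05, with a background of 1.22% higher and 1.08% lower, and Cyber-T on log2 values called 0 as well.

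**Figure D2:**
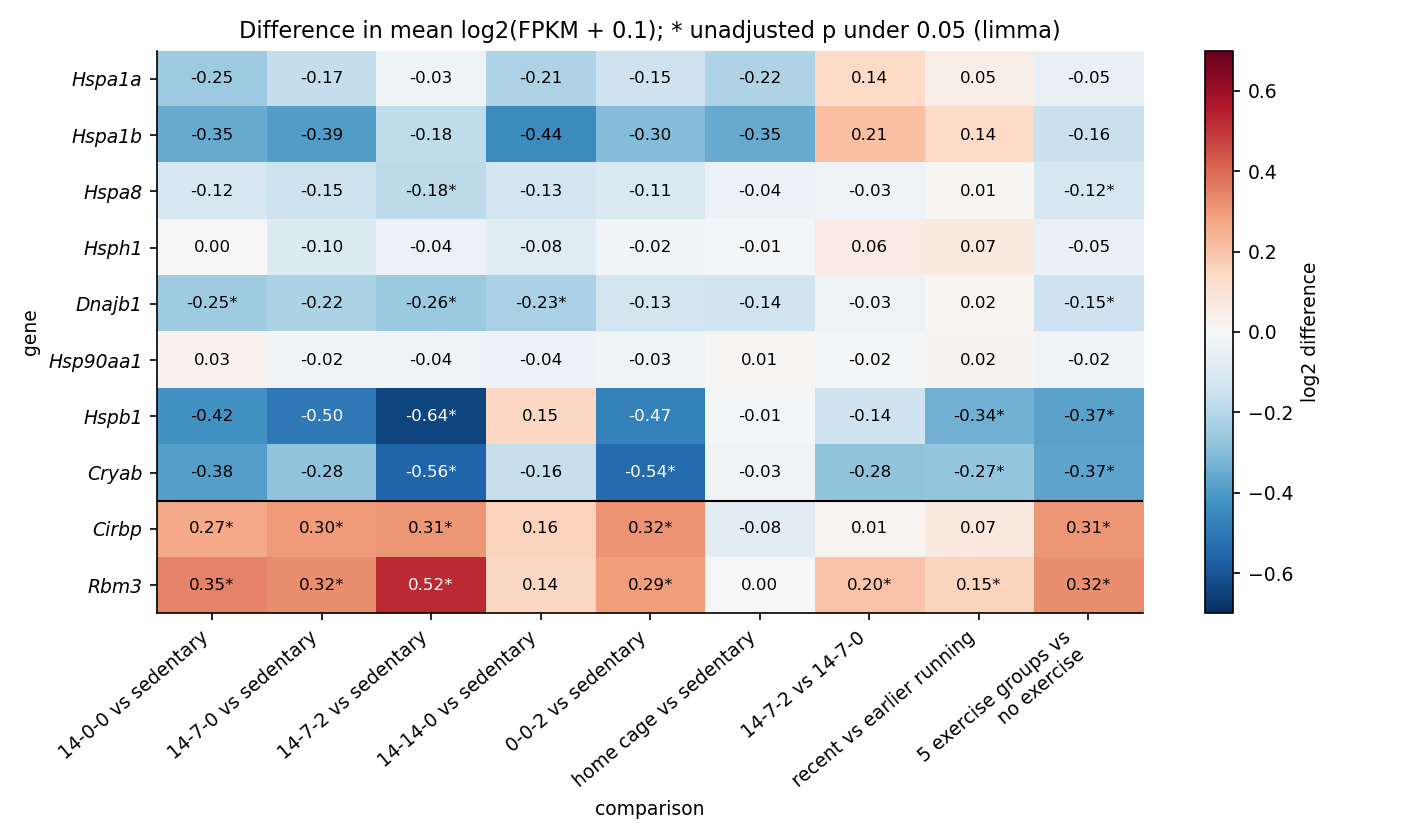
Difference of each member (rows) in each comparison (columns) as a log2 value, coloured from lower (blue) to higher (red), with an asterisk where the unadjusted limma p is under 0.05. Both cold-inducible rows are positive in all 5 exercise groups, with asterisks in 4 of them, and the asterisks of the heat shock rows against sedentary stand on negative values.

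Hspa1a and Hspa1b encode the stress-inducible Hsp70 that is scarce in unstressed cells and rises steeply after heat. Both were low in every group. Hspa1a group means lay between 1.60 FPKM in 14-14-0 and 1.99 FPKM in sedentary mice, and single libraries between 0.877 and 4.59 FPKM. Hspa1b group means lay between 1.74 FPKM in 14-14-0 and 2.59 FPKM in sedentary mice, and single libraries between 0.874 and 5.40 FPKM. In sedentary libraries Hspa1b ran from 0.989 through a median of 1.92 to 5.03 FPKM, so 1 group alone covered nearly the whole range of the gene. The differences of Hspa1b from sedentary ran from −0.44 (SE 0.27, limma p = 0.121) in 14-14-0 to −0.18 (SE 0.31, p = 0.572) in 14-7-2, and those of Hspa1a from −0.25 (SE 0.26, p = 0.348) to −0.03 (SE 0.25, p = 0.905). With standard errors of 0.22 to 0.31, a change of the size seen for Cirbp was not detectable in either gene.

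Dnajb1, the J-domain partner that delivers clients to Hsp70, ran from 14.7 through a median of 18.0 to 30.4 FPKM in sedentary libraries. In 14-7-2 it ran from 13.0 through 16.1 to 20.1 FPKM, in 14-0-0 from 11.9 through 17.4 to 17.8 FPKM, and in 14-14-0 from 14.2 to 19.6 FPKM. The groups overlapped, with 1, 0 and 1 of 10 libraries above the sedentary median. Dnajb1 was lower in 14-7-2, at −0.26 (SE 0.11, limma p = 0.0343), and in the other two groups, at −0.25 (SE 0.12, p = 0.0479) in 14-0-0 and −0.23 (SE 0.11, p = 0.0495) in 14-14-0. The highest sedentary value, 30.4 FPKM, belonged to replicate 6, and without it the 3 Dnajb1 differences were −0.18 (p = 0.0648), −0.17 (p = 0.0953) and −0.16 (p = 0.0956), none past the threshold. Hsph1, the Hsp70 exchange factor, had group means between 104 and 111 FPKM and, with all libraries, no difference from sedentary beyond 0.10 on the log2 scale. Without sedentary replicate 6, Hsph1 was lower in 14-14-0, at −0.12 (SE 0.05, limma p = 0.0262), past the unadjusted threshold.

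Hspa8 is the constitutive Hsc70, among the most abundant transcripts of the tissue. Sedentary libraries ran from 938 through a median of 1199 to 1322 FPKM and home cage libraries from 1003 through 1068 to 1244 FPKM. In 14-7-2 Hspa8 ran from 834 through 994 to 1130 FPKM, a difference of −0.18 from sedentary (SE 0.08, limma p = 0.0259; permutation p adjusted over the 6 comparisons of the gene, 0.0958). It was the 1 heat shock member of 14-7-2 past the threshold without sedentary replicate 6 (−0.17, p = 0.0354). In each of the 5 exercise groups 10 of 10 libraries lay below the sedentary median of Hspa8, and 8 of 10 home cage libraries did. The differences in the other 4 exercise groups were −0.11 to −0.15, with p between 0.0686 and 0.143. Hsp90aa1 was steady, with group means of 446 to 468 FPKM and differences from sedentary between −0.04 and 0.03.

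Among the heat shock genes past the threshold, the small heat shock genes had the largest differences from sedentary. Cryab, abundant in oligodendrocytes, ran from 66.9 through a median of 125 to 326 FPKM in sedentary libraries, and the highest value was that of replicate 6. In 14-7-2 Cryab ran from 38.6 through 99.1 to 119 FPKM and in 0-0-2 from 65.8 through 86.5 to 121 FPKM. None of these 20 libraries reached the sedentary median. Cryab was lower in 14-7-2, at −0.56 (SE 0.24, limma p = 0.0273), and in 0-0-2, at −0.54 (SE 0.21, p = 0.0175). Without replicate 6 the Cryab values were −0.41 (p = 0.0524) in 14-7-2 and −0.39 (p = 0.0263) in 0-0-2, so only the second remained past the threshold. After recent against earlier running Cryab was lower, at −0.27 (SE 0.09, p = 0.00564, adjusted p = 0.248).

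Hspb1 ran from 3.27 through a median of 7.38 to 21.8 FPKM in sedentary libraries, again highest in replicate 6. In 14-7-2 it ran from 2.56 through 4.47 to 7.31 FPKM, with every library below the sedentary median. In 14-14-0 it ran from 6.66 through 7.98 to 11.2 FPKM, with 8 of 10 above. Hspb1 was lower in 14-7-2, at −0.64 (SE 0.29, limma p = 0.0385), and without replicate 6 the value was −0.47 (p = 0.0778). In recent against earlier running Hspb1 was lower, at −0.34 (SE 0.14, p = 0.0188, adjusted p = 0.406).

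**Figure D3:**
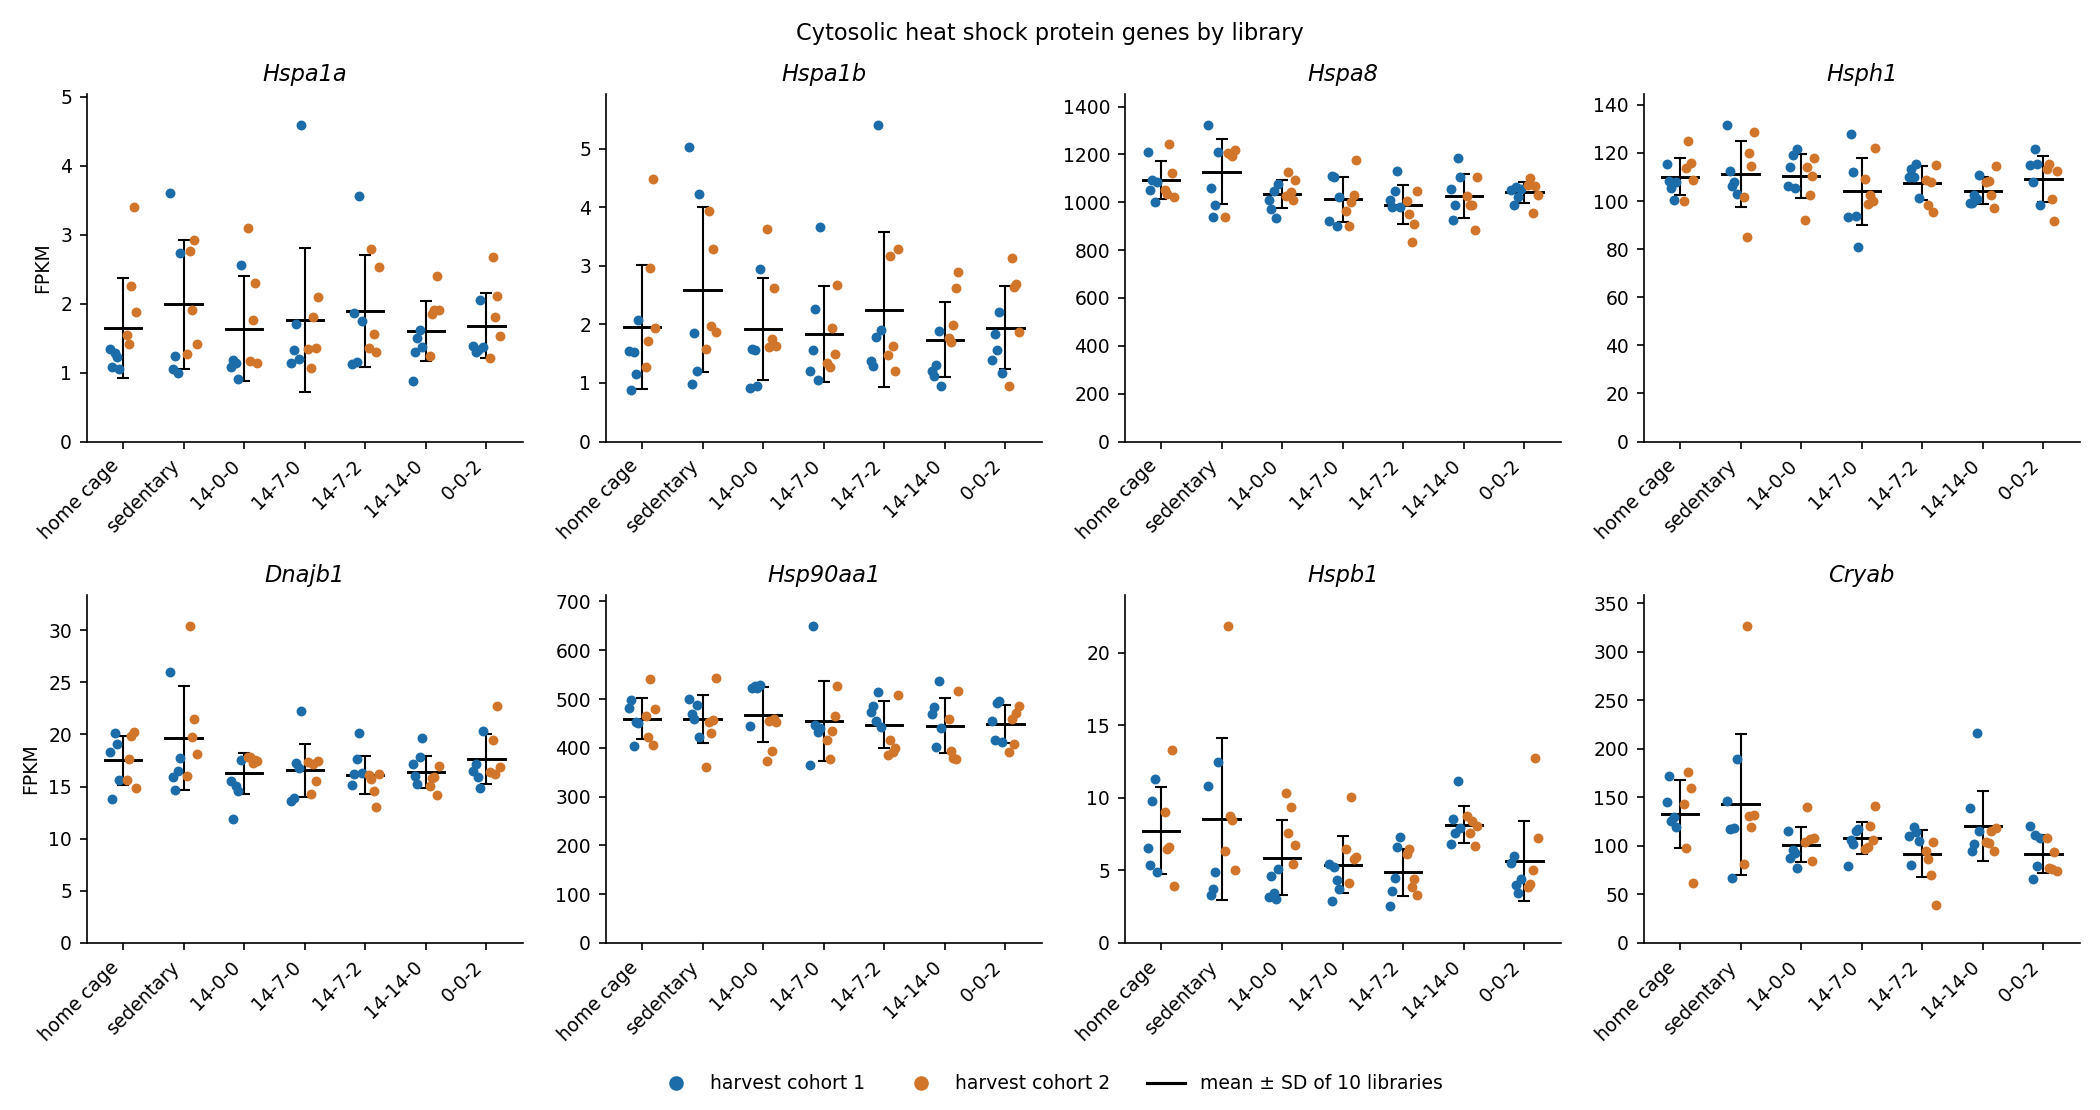
The 8 heat shock genes in every library (FPKM, vertical axes) by group (horizontal axes), with points for single libraries coloured by harvest cohort and the group mean ± SD of 10 libraries. Sedentary replicate 6 is the highest sedentary library for Dnajb1 (30.4 FPKM), Hspb1 (21.8 FPKM) and Cryab (326 FPKM).

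Markers of other cell types moved with the small heat shock genes and with Hspa8. The summed level of 8 oligodendrocyte markers was 1766 to 7204 FPKM in sedentary libraries (median 3218), 1381 to 3799 FPKM in 0-0-2 (median 2449) and 1444 to 3624 FPKM in 14-7-2 (median 2887), and none of the markers was at 0. All 8 were lower after recent than after earlier running (median −0.30, against 0.01 over all genes), and 4 of 8 were lower in 0-0-2 than in sedentary mice (1 of 8 without sedentary replicate 6). Over all genes, 8.9% were past the threshold between recent and earlier running, and 1.23% were called lower in 0-0-2. In 14-7-2, where both Cryab and Hspb1 were called, 0 of 8 oligodendrocyte markers passed the limma threshold of an unadjusted p under 0.05 (median −0.24). Across 68 libraries, with group and cohort means removed and the 2 libraries that stood apart left out, Cryab correlated with this sum at Pearson r = 0.84 (permutation p adjusted over 130 relations 0.000325; Spearman rho = 0.80). It was 0.87 and 0.82 in harvest cohorts 1 and 2 and 0.82 without the 2 libraries farthest from the median. Hspb1 correlated with the sum of 7 endothelial markers at r = 0.55 (adjusted p = 0.00111; rho = 0.57; 0.55 without the 2 farthest), with 0.61 and 0.47 in cohorts 1 and 2. Hspa8 correlated with the oligodendrocyte sum at r = 0.46 (adjusted p = 0.00399; rho = 0.48; 0.45 without the 2 farthest), with 0.55 and 0.34 in cohorts 1 and 2, and with the thalamus sum at r = 0.43 (adjusted p = 0.00104; rho = 0.46; 0.45 without the 2 farthest). The part of these markers in the differences of Cryab, Hspb1 and Hspa8 was not tested.

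Set against home cage mice instead, the heat shock members past the unadjusted threshold were again lower. In 14-7-2 they were Hspa8 (−0.14), Hspb1 (−0.63) and Cryab (−0.54), so that 5 of 10 members passed where 9.96% of all genes did. In 14-0-0 Cryab (−0.36), in 14-7-0 Hspb1 (−0.49) and in 0-0-2 Cryab (−0.51) joined the cold-inducible pair, 3 of 10 members each against backgrounds of 7.52%, 4.19% and 6%. The Hspb1 call in 14-7-0 was lost without 14-7-0 replicate 4, the library of lowest depth, and in the joint fit of all 7 groups. In each of these, 2 members were called higher and 0 lower. In 14-14-0, 0 members passed by limma at an unadjusted p under 0.05 (background 2.26%), while Cyber-T on log2 values called 1. In the 5 exercise groups against both unexercised groups, 2 members were higher (background 5.99%) and 4 lower (background 3.79%). The lower ones were Hspa8 (−0.12, SE 0.03, limma p = 0.000762, adjusted p = 0.134), Cryab (−0.37, SE 0.11, p = 0.000778, adjusted p = 0.134), Dnajb1 (−0.15, SE 0.06, p = 0.00976) and Hspb1 (−0.37, SE 0.15, p = 0.0125), and all 4 stayed past the unadjusted threshold without sedentary replicate 6. Without both libraries that stood apart, Hspb1 was no longer past it (p = 0.0516).

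Genes that regulate the heat shock response or work beside it were counted list by list. Over all genes, 6.11% were called higher and 3.04% lower in 14-0-0, 1.6% and 1.66% in 14-7-0, and 2.07% and 2.32% in 14-7-2. In 14-14-0 these shares were 3.19% and 1.75%, and in 0-0-2 they were 1.14% and 1.23%. Of 4 heat shock factor genes, Hsf1, the factor that switches the response on, was lower than in sedentary mice in 14-0-0 (−0.31, SE 0.10, limma p = 0.00429), in 14-7-0 (−0.20, SE 0.09, p = 0.0437) and in 14-7-2 (−0.21, SE 0.09, p = 0.0263). Its values were −0.15 (p = 0.0902) in 14-14-0, −0.18 (p = 0.0511) in 0-0-2 and −0.10 (p = 0.312) in home cage mice. Hsf2, Hsf4 and Hsbp1 did not pass the threshold in any of these comparisons. Of 23 other cytosolic chaperones and co-chaperones, 2 were higher and 1 lower in 14-0-0, 2 lower in 14-7-0, 3 lower in 14-7-2 and 2 higher in 14-14-0. The 14-0-0 counts lay near the shares over all genes. Stip1, which links Hsp70 to Hsp90, was lower in 14-0-0 (−0.19), 14-7-0 (−0.20) and 14-7-2 (−0.24), and Fkbp4, an Hsp90 co-chaperone, in 14-7-0 (−0.20) and 14-7-2 (−0.26). Dnajb2, another J-domain protein, was lower in 14-7-2 (−0.29). The small heat shock genes Hspb6 and Hspb8 were higher in 14-0-0 (0.52 and 0.39) and 14-14-0 (0.48 and 0.40), the 2 groups in which all 8 choroid plexus markers were also higher. Without sedentary replicate 6, Hsf1 remained past the threshold in 14-0-0 (−0.28, p = 0.00877) and not in 14-7-0 (−0.17, p = 0.081) or 14-7-2 (−0.18, p = 0.0507). Stip1 was then past it in 14-7-0 (−0.14) and 14-7-2 (−0.17) and not in 14-0-0 (−0.13, p = 0.0664), Fkbp4 in 14-7-2 (−0.19) and not in 14-7-0 (−0.13, p = 0.0832), and Dnajb2 was not (−0.18, p = 0.0848). The Hspb6 and Hspb8 calls were kept. Without that library Hspb6 was also called higher in 14-7-2 (0.29, limma p = 0.0451) and Hspb8 in home cage mice (0.28, p = 0.0308). Dnajb5, another J-domain gene, was called only without that library, lower in the 4 groups that began with 14 days of running (−0.20 to −0.26). No gene of these lists passed adjustment against sedentary mice.

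Chaperones of other compartments gave a different count. Of 5 mitochondrial chaperones none was called against sedentary mice in any group, with medians of −0.03 to 0.01. Of 12 endoplasmic reticulum chaperones, 3 were lower in 14-0-0, 7 in 14-7-0, 10 in 14-7-2 and 4 in 0-0-2, and none in 14-14-0. These counts were 2, 6, 9, 3 and 0 without sedentary replicate 6, all of genes also called with it. Over all genes and with every library, 3.04%, 1.66%, 2.32%, 1.23% and 1.75% were called lower in these groups, in the same order. In 14-7-2 their median was −0.32, against −0.18 for the 8 cytosolic heat shock members and −0.00 for all genes, with Hspa5 (BiP) at −0.47 (SE 0.13). Of 5 genes tied to temperature-dependent splicing or to RBM3, Clk3, a splicing kinase, was lower in 14-0-0 (−0.18), 14-14-0 (−0.13) and 0-0-2 (−0.20), and the others were not called. The Clk3 call in 14-14-0 was lost without sedentary replicate 6 (−0.12, p = 0.0811).

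Harvest cohorts were also compared across all groups. With 7 group means in the model, 4 of 10 members differed between cohorts where 11.9% of all genes did: Hspa1a was higher in cohort 2 by 0.28 (SE 0.12, limma p = 0.0222), Hspa1b by 0.33 (SE 0.14, p = 0.0209) and Hspb1 by 0.35 (SE 0.13, p = 0.00768), and Hsp90aa1 was lower, at −0.10 (SE 0.04, p = 0.0112). None passed adjustment, as 0.585% of all genes did. Cirbp (0.09, p = 0.120) and Rbm3 (−0.07, p = 0.210) did not pass the threshold. Within cohort 1 alone, 5 libraries a group, the Cirbp differences from sedentary were 0.28 to 0.40 in the exercise groups other than 14-14-0, each past the threshold, and those of Rbm3 were 0.21 to 0.38, none past it. Within cohort 2 alone the Rbm3 differences in these groups were 0.36 to 0.67, each past the threshold, and those of Cirbp were 0.20 to 0.35, none past it. The difference between cohorts was not past the threshold for either gene in any group. For the 5 exercise groups against both unexercised groups, the Cirbp differences were 0.36 and 0.26 in cohorts 1 and 2 and the Rbm3 differences 0.27 and 0.38, each past the unadjusted threshold.

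To describe how the members varied from mouse to mouse, all 45 pairs were correlated over the 68 libraries on log2 values with group and cohort means removed. Heat shock genes mostly varied in the same direction: 26 of 28 pairs were positive, 14 of them past adjustment over the 45 pairs, with a median r of 0.34. Heat shock and cold-inducible genes mostly went in opposite directions: 14 of 16 pairs were negative, 8 of them past adjustment, with a median r of −0.35. All points share the libraries and their normalization. Such counts were not made over all pairs of genes, so they do not show a relation particular to the members. By r among all tested genes, Hspa8 stood at rank 24 for Dnajb1, and Hsph1 at rank 396 for Hsp90aa1. Counted from the lowest r, Rbm3 stood at rank 111 for Dnajb1 and at rank 491 for Hspb1.

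Hspa1a and Hspa1b were the closest pair, at Pearson r = 0.87 (permutation p = 1e-05, the smallest that 100000 resamples can give; rho = 0.80), with 0.84 without the 2 farthest libraries and 0.84 and 0.90 in cohorts 1 and 2. This pair shares most of its 50-base stretches and nearly all of its promoter window. Hspa8 went with Hsph1 (r = 0.64, rho = 0.65) and with Dnajb1 (r = 0.60, rho = 0.58), and Hsph1 with Hsp90aa1 (r = 0.62, rho = 0.58), each with a permutation p adjusted over the 45 pairs of at most 0.0003 and an r without the 2 farthest libraries of 0.59, 0.52 and 0.57.

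The strongest opposite pair was Dnajb1 with Rbm3, at r = −0.57 (permutation p = 0.00014, adjusted p = 0.000787; rho = −0.42, adjusted p = 0.00622). It was −0.47 without the 2 farthest libraries and −0.58 and −0.53 in cohorts 1 and 2. Hspb1 with Rbm3 gave r = −0.54 (rho = −0.45), with −0.51 without the 2 farthest libraries. Cirbp was opposed to Dnajb1 (r = −0.47, rho = −0.45), Hsph1 (r = −0.45, rho = −0.42) and Hspa8 (r = −0.42, rho = −0.42), with −0.43, −0.40 and −0.36 without the 2 farthest. Cirbp and Rbm3 themselves were less tightly tied, at r = 0.42 (adjusted p = 0.0052) and rho = 0.28 (adjusted p = 0.0797), so the relation held for the linear measure and missed the threshold for ranks. Without the 2 farthest libraries r was 0.33.

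**Figure D4:**
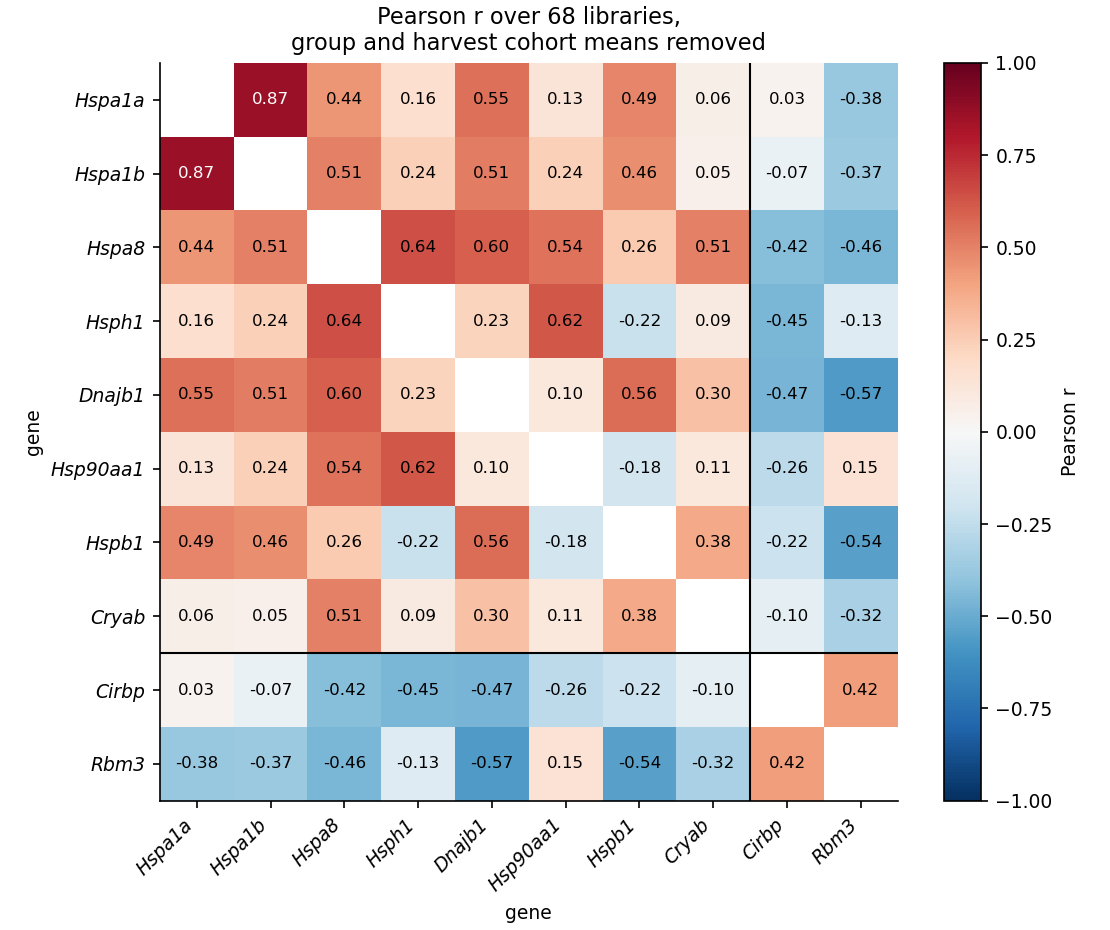
Pearson r between members over 68 libraries, on log2(FPKM + 0.1) values with group and cohort means removed (rows and columns are genes, blue negative, red positive). The heat shock block is mostly positive, up to 0.87 for Hspa1a with Hspa1b, and the 2 cold-inducible genes are mostly negative against it, down to −0.57 for Rbm3 with Dnajb1.

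**Figure D5:**
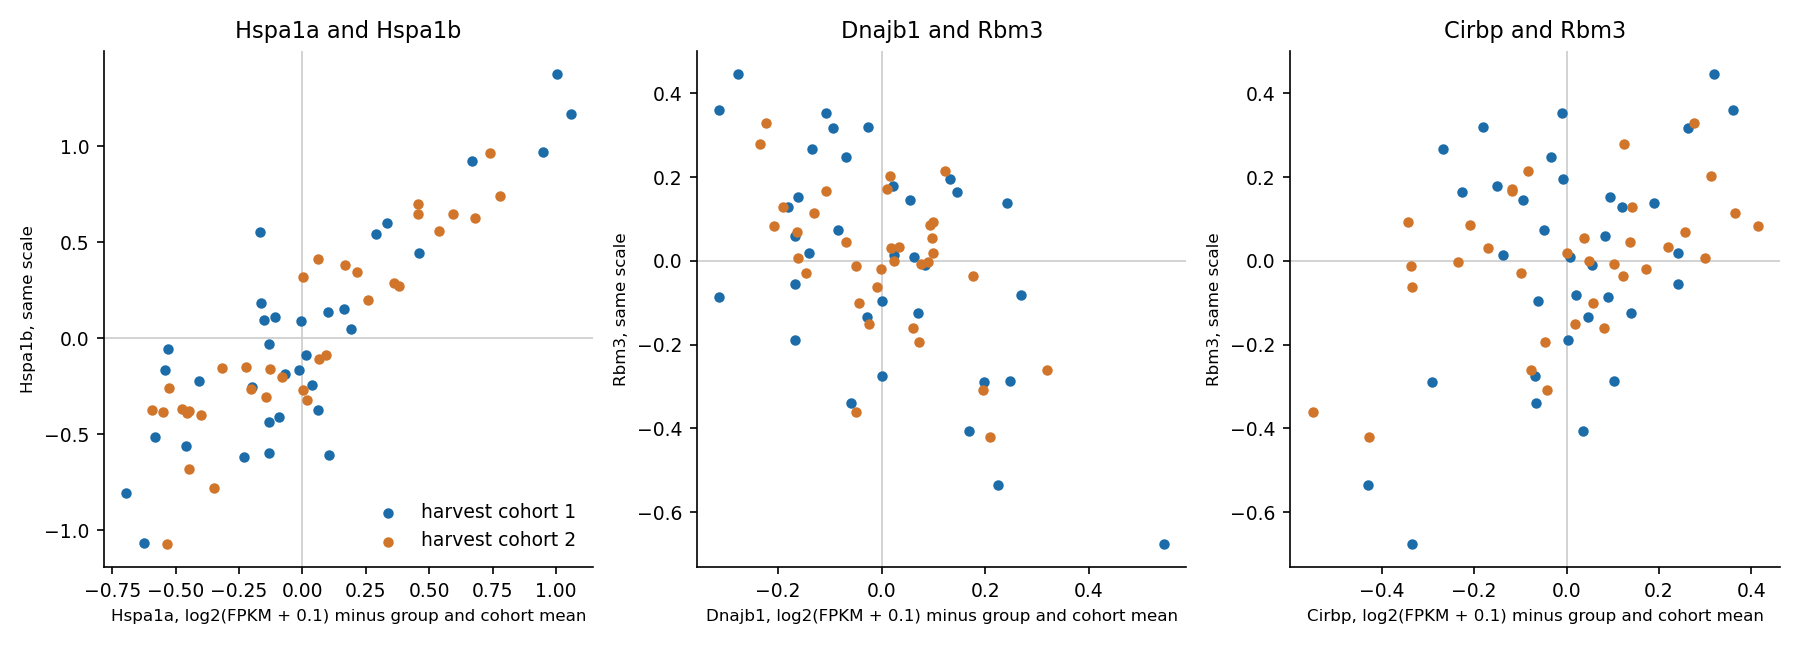
Residual log2 values (group and cohort means removed) of 68 libraries for 3 pairs, 1 point a library. Hspa1a and Hspa1b lie along a rising line (r = 0.87), Dnajb1 and Rbm3 along a falling one (r = −0.57), and Cirbp against Rbm3 forms a looser rising cloud (r = 0.42).

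Other gene groups varied with the members in the same libraries. The sum of immediate early genes, which neurons switch on within minutes of activity, went with Hspa1a (r = 0.66, rho = 0.64), Dnajb1 (r = 0.55, rho = 0.48) and Hspa1b (r = 0.52, rho = 0.45) and against Rbm3 (r = −0.56, rho = −0.47). These 4 were past adjustment over 130 relations, and were 0.62, 0.53, 0.47 and −0.48 without the 2 farthest libraries. Within cohorts 1 and 2 the r of Rbm3 with this sum was −0.72 and −0.35, and that of Dnajb1 0.74 and 0.31. Of the 10 immediate early genes tested, 7 were lower than in sedentary mice in 14-0-0, 7 in 14-7-2, 5 in 14-14-0, 4 in 14-7-0 and 3 in 0-0-2. Over all genes and with every library the shares called lower were 3.04%, 2.32%, 1.75%, 1.66% and 1.23%, in that order. Without sedentary replicate 6 the immediate early gene counts were 6, 6, 5, 3 and 3, in that order. The part of the immediate early genes in the differences of the members was not tested. Cirbp went against the sum of endoplasmic reticulum chaperones (r = −0.62, rho = −0.62, adjusted p = 0.000325; −0.62 without the 2 farthest; −0.46 and −0.76 in cohorts 1 and 2). Hsp90aa1 went against the sum of evening clock genes (r = −0.51, rho = −0.50, adjusted p = 0.00111; −0.50 without the 2 farthest), of which 7 of 8 were lower than in sedentary mice in 14-0-0, 5 in 0-0-2, 4 in 14-7-2 and in home cage, 1 in 14-7-0 and 0 in 14-14-0. Over all genes and with every library, 1.08% were called lower in home cage mice and at most 3.04% in an exercise group. Without sedentary replicate 6 the evening clock counts were 7 in 14-0-0, 6 in 0-0-2 and 5 in 14-7-2. They were then 4 in home cage and 1 in each of 14-7-0 and 14-14-0.

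The genes whose levels were most like those of each member over the 68 libraries were taken from all 12994 tested genes by Pearson r, as a description. For Rbm3 they were Hnrnpdl (0.73), Armcx5 (0.68) and 2810029C07Rik (0.65), and for Cirbp Ninl (0.70) and Wnt9a (0.63), so neither cold-inducible gene was among the nearest of the other. For Hspa1a they were the activity gene Egr4 (0.87), Zfp771 (0.87) and Hspa1b (0.87), and for Hspa1b they were Hspa1a, Pgp (0.84) and Egr4 (0.83). Dnajb1 was nearest to Fosb (0.83), an immediate early gene, then Herpud1 (0.73) and Spry4 (0.71). Hspa8 was nearest to Pea15a (0.73), Stip1 (0.72) and Tuba1a (0.71), and Hsp90aa1 to Zc3h15 (0.88), the chaperonin subunit gene Cct8 (0.85) and the mitochondrial chaperone gene Hspd1 (0.84). Hsph1 was nearest to Cdk14 (0.77), Stau2 (0.75) and Wdr47 (0.74). Hspb1 was nearest to the collagen chaperone gene Serpinh1 (0.74), Herpud1 (0.71) and Pik3ip1 (0.70). Cryab was nearest to Dnajb2 (0.86), Rhog (0.86) and Gltp (0.86).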

How the data were processed

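Single-end 50-base reads of poly-A selected RNA from 70 libraries of mouse dorsal hippocampus were aligned by the authors to mm10 (the build GRCm38) with ELAND and Bowtie, keeping uniquely aligned reads, and the deposited FPKM values were made with Cuffnorm. The versions of Bowtie and Cuffnorm, strand handling and the Cuffnorm scaling option are not given in the sources used here. These sources also do not settle whether the FPKM values rest on uniquely aligned reads alone. The deposited FPKM carry no counts, and read totals were not used here, so no counting interval is given. Relative depth was estimated from genes under 0.1 FPKM.

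The 12994 genes whose mean reached 1 FPKM, of 24346, were tested with limma 3.58.1 (R 4.3.3; trend, two-sided) on log2(FPKM + 0.1), pairwise with no covariates as in the study, and called at an unadjusted p under 0.05. Benjamini-Hochberg adjusted p over all genes tested is given beside. The study's Cyber-T test was run as an alternative. On simulated normal values over 12994 genes, with the spread of 14-7-2 in both groups, limma recovered 180 of 200 log2 changes of 0.5. Of the unchanged genes, 5.01% were called. Every member but Cirbp had a wider SD in sedentary than in 14-7-2 libraries (Rbm3 20.8 against 13.5 FPKM). Recovery at the sedentary spread was therefore not measured. Permutation tests used 100000 resamples in Python 3.11.15. Named genes are all 10 members, called genes of the lists, the heat shock factors and the 3 genes most correlated with each member, of which 1 is not reported here. Members and lists were chosen with earlier results of these data known. Each library was taken as 1 mouse, and p-values measure the spread between these libraries. Alternatives covered the pseudocount, the minimum mean, scaling, the fit, cohorts, replicate numbers, the threshold and single libraries.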

Additional observations from a re-analysis of the deposited data

Results flagged for a closer look

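The gap of an extreme library to its neighbour, as a share of the whole range, was compared with Dixon's 95% critical value. For normally distributed values chance flags about 1 in 20. FPKM values were used here without logarithms, so that rate need not hold. In 70 sets of 10 libraries (10 genes in 7 groups), 11 had 1 library with a gap above the critical value. For Hspb1 these were sedentary replicate 6 (21.8 FPKM, next 12.4, gap 0.505), 0-0-2 replicate 8 (12.7, next 7.26, gap 0.588), 14-14-0 replicate 3 (11.2, next 8.73, gap 0.541) and 14-7-0 replicate 7 (10.05, next 6.49, gap 0.497). For Cryab they were 14-14-0 replicate 3 (216 FPKM, next 139, gap 0.631) and sedentary replicate 6 (326, next 190, gap 0.526). For Hspa1a they were 14-7-0 replicate 4, the library of lowest depth (4.59 FPKM, next 2.09, gap 0.71), and home cage replicate 8 (3.40, next 2.26, gap 0.486). For Hspa1b it was 14-7-2 replicate 3 (5.40 FPKM, next 3.29, gap 0.504), for Dnajb1 14-7-0 replicate 4 (22.3, next 17.5, gap 0.553) and for Cirbp 14-7-2 replicate 8 (64.0, next 50.8, gap 0.503). Every one was the highest library of its set, and none was an Rbm3, Hspa8, Hsph1 or Hsp90aa1 value.

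Of 60 tests of whether a member's difference from sedentary differed between harvest cohorts, 1 passed an unadjusted p under 0.05, Dnajb1 in 14-7-2. Its difference was −0.387 in cohort 2 relative to cohort 1 (SE 0.18, limma interaction p = 0.0380, adjusted p = 0.829), where 5.17% of all genes passed. Without sedentary replicate 6 and 14-7-0 replicate 4 it was −0.25 (p = 0.137).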

How the results depend on the processing

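Of 1970 values of single members under the alternatives, 1855 stayed on the same side of the threshold, 87 were no longer past it and 28 came to be past it. Where the reported or the alternative value was past the threshold, 0 reversed direction. Where neither was past it, direction was not compared. Cirbp and Rbm3 were above sedentary in all 72 alternatives each over the 5 exercise groups. Some of these could not change the direction. The joint fit, the cohort covariate, the replicate block, Cyber-T on log2 values and p under 0.01 repeat the reported group difference by construction. Of 218 counts of members, 86 differed from the reported one and 42 of them by over 1.5 times or to or from 0. Those 42 are given below, and their causes were not tested except where fewer libraries or a stricter threshold enter by construction.

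Against sedentary, the 1 member of 14-14-0 became 0 with no minimum mean, median-ratio scaling, quantile normalization, harvest cohort as covariate, cohort 1 alone and p under 0.01, and 2 in the joint fit and with Cyber-T on FPKM. Without sedentary replicate 6 that count stayed at 1, but the member was Hsph1 in place of Dnajb1. The 3 of 14-0-0 became 5 in the joint fit, 1 in either cohort alone and 0 at p under 0.01. The 2 of 14-7-0 became 5 in the joint fit and 1 in cohort 1, in cohort 2, at p under 0.01 and without sedentary replicate 6 (with or without 14-7-0 replicate 4). The 6 of 14-7-2 became 1 in cohort 1, 3 without sedentary replicate 6 and 2 at p under 0.01, and the 3 of 0-0-2 became 1 in cohort 1 and at p under 0.01. For 14-7-2 against 14-7-0, 1 became 0 in the joint fit, cohort 1 and at p under 0.01, and 2 with Cyber-T on log2 values and in cohort 2. For cohort 2 against cohort 1, 4 became 2 with a minimum mean of 5 FPKM and 1 at p under 0.01. Among the 7 groups, 5 became 2 in either cohort. Against home cage, 0 became 1 for 14-14-0 in the joint fit and with Cyber-T on log2 values, 5 became 3 (cohort 1 and p under 0.01) and 1 (cohort 2) for 14-7-2, and 3 became 1 in cohort 2 for 14-0-0, 14-7-0 and 0-0-2. The 1 interaction became 0 without the 2 libraries that stood apart. With quantile normalization the adjusted p of Rbm3 was 0.0756 over the 7 groups and 0.0889 for 14-7-2 against home cage.

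Replicate numbers did not pair the libraries: 2 to 7 of 10 same-numbered pairs correlated above 0.1, and 0 to 3 of 10 libraries correlated best with their own number. With the replicate block the 14-14-0 count went from 1 to 0, that of 14-7-2 against sedentary from 6 to 4 (4 lower to 2 lower) and that of 14-0-0 from 3 to 4. Against home cage it took 14-7-2 from 5 to 4, 14-0-0 from 3 to 2 and 0-0-2 from 3 to 4. Low genes such as Hspa1a are limited by depth.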
